A study of Mus musculus with 12 samples.

Results

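The protein kinase C (PKC) isoform genes were followed in mouse pre-megakaryocyte/erythroid progenitors (PreMegEs), the bone marrow cells that give rise to megakaryocytes and to red cells. The members were the 8 genes whose symbol in the count table is Prkca, Prkcb, Prkcd, Prkce, Prkch, Prkci, Prkcq or Prkcz, out of 41128 genes in all. PKC enzymes are serine/threonine kinases that are folded by chaperones and primed by phosphorylation, and then wait in the cytosol until lipid second messengers bring them to a membrane. Classical isoforms (cPKC) respond to calcium and diacylglycerol, the nPKC isoforms to diacylglycerol without calcium, and atypical isoforms (aPKC) to neither. In platelets and megakaryocytes, phospholipase C makes diacylglycerol below the thrombin and collagen receptors, and PKC acts in granule secretion and integrin activation there.

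PreMegEs of adult bone marrow from C57BL/6 mice, 12 to 16 weeks old, were profiled by RNA-Seq in 4 groups of 3 libraries, each library made from a pool of 3 mice. WT PreMegEs came from wild type mice. P2- and P2+ PreMegEs were the hCD4-negative and hCD4-positive cells of Runx1 P1-GFP::P2-hCD4/+ mice, whose dual reporter allele carries GFP at the distal promoter (P1) and human CD4 at the proximal promoter (P2) of Runx1 on 1 chromosome. KO PreMegEs came from mice labelled RUNX1C knockout, which lack the isoform made from the distal promoter. Both fractions carry a reporter allele that WT mice do not have, so its effect and that of the sort cannot be told apart in their comparisons with WT. KO PreMegEs were not divided by P2 activity, and their allele differs from that of the fractions. In KO against either fraction, and where KO is placed between them, the effects of allele and sort cannot be told apart. The study describes its RUNX1C knockout mice as carrying GFP at P1 on both chromosomes, so in KO against WT the effect of that allele cannot be told apart from the loss of the isoform, and whether the KO libraries were prepared with the others is not given in the sources used here.

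The libraries held between 10726098 and 14445026 counts, and the upper limit for a gene with a count of 0 was set at 3 counts, or 0.207 to 0.288 CPM (counts scaled by TMM to the library size), which covers counting error only. The PreMegE genes Kit, Slamf1, Gata1, Gata2 and Epor were present in every library, and Ly6a and Fcgr3 reached at most 3.97 and 2.01 CPM. Eng, the CD105 antigen on which PreMegEs are usually gated as low, read between 93.9 and 153 CPM. Runx1, counted over both promoters together, averaged 631 CPM in P2+, 369 in WT, 360 in KO and 211 in P2- PreMegEs, and this gene-level count does not check the RUNX1C deletion. Replicate 2 of P2- and replicate 2 of P2+ stood apart by their summed immediate early genes (13134 and 8853 CPM over 10 genes, against 167 to 1243 in the other 10 libraries), so the log2 fold changes and the number of members called in P2+ against P2- are also given without both. The values of pathway genes and the RPKM shares include these libraries. In pooled bulk samples, fewer cells with a transcript and less of it per cell cannot be told apart.

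Prkca, a classical isoform, is on chromosome 11 (107933387 to 108343928, minus strand, GRCm38) and had the steepest gradient of the well-counted members. It read 134, 111 and 121 CPM in P2+, 68.1, 79.0 and 73.1 in WT, 52.7, 63.3 and 59.1 in KO, and 38.5, 32.5 and 35.9 in P2- PreMegEs. No library of any group reached the range of another, and all neighbours in the order P2+, WT, KO, P2- passed the test, although the steps from WT to KO and from KO to P2- each lost their call when certain single libraries were left out (named with those comparisons). Between the fractions, P2+ minus P2-, its log2 fold change was 1.79 (SE 0.10, edgeR adjusted p = 5.37e-06), or 3.46-fold, and was 1.80 without replicate 2 of both fractions. With the mean of P2- set to 0% and that of P2+ to 100% in CPM, WT PreMegEs lay at 43.7% ± 6.32 (SD, n = 3) and KO PreMegEs at 26.2% ± 6.19 (SD, n = 3). The exons of Prkca overlap those of Apoh on the other strand by 30 bases, but Apoh had 0 counts in all 12 libraries.

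The sequence upstream of the annotated Prkca exons is shown because the libraries of all 4 groups were apart for this gene. That of Prkcd is shown because the main fit, which left libraries unpaired, called it in none of the comparisons. When same-numbered libraries of P2+ and P2- were paired, Prkcd was called (log2 fold change 0.30, edgeR adjusted p = 8.07e-03). It is therefore not shown as a gene without a difference. Both sequences are from RefSeq (GRCm38.p6), 5′ to 3′ on the strand of the gene, at chr11:108343929-108344138 and chr14:30626211-30626458. They are the parts outside exons of windows of 300 bases around the start site, and are wholly in lower case because no searched motif lies in them.
Prkca: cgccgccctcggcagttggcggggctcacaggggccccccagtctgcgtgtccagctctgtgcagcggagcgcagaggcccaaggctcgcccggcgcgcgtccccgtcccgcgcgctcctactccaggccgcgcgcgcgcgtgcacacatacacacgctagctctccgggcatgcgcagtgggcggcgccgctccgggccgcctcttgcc
Prkcd: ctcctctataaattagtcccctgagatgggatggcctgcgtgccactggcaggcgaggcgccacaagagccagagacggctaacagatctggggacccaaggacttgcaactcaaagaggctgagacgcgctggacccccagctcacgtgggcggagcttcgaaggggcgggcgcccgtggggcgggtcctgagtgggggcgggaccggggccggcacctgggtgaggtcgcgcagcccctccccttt

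Motifs were searched on both strands. RUNX factors were given the letters TGTGGT or, as the other form, TGCGGT. The letters for GATA factors were AGATAA or the form AGATAG, and with another first letter TGATAA or the form TGATAG, while ETS factors were given GGAAGT. Of 32851 promoter windows, 22.4% hold a RUNX match, 29.8% a GATA match and 23.8% an ETS match. Windows were found for 6 of the 8 members, 9 in all, and not for Prkce and Prkch. The Prkca window of 300 bases had none of the 3 motifs, a GC content of 75.3% and 42 CG dinucleotides, against medians of 52.7% and 7 over all windows. Prkcb had 2 RUNX matches, the third start site of Prkcz had 2, and the first start site of Prkcd had 1 ETS match. No window held matches of more than 1 of the 3 motifs, none held a GATA match, and the windows of Prkci and Prkcq held none of the motifs.

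Prkcb, the other classical isoform, known for its place in B cell receptor signalling, is on chromosome 7 (122288751 to 122634402, plus strand) and was scarcely transcribed. It read 5.95, 4.21 and 3.36 CPM in P2+, 2.15, 2.45 and 1.60 in WT, 1.75, 0.288 and 0.988 in P2-, and 1.14, 0.684 and 0.182 in KO PreMegEs. These values rest on between 2 and 71 counts. P2+ libraries lay above all others and KO libraries below all WT libraries, while P2- overlapped both WT and KO. Its log2 fold change was 2.13 (SE 0.52, adjusted p = 0.0114) for P2+ against P2-, where it passed the filter of 1 CPM in 3 libraries only through the P2+ libraries, so a difference was built into its entry. It moved from 2.13 to 2.74 without P2- replicate 1, its highest P2- library, and to 1.73 without P2- replicate 2, its lowest. It was 1.78 without replicate 2 of both fractions (adjusted p = 0.0115). The summed B cell markers were likewise low, with at most 53.9 CPM over 8 genes in any library. They were at 53.9, 28.8 and 28.1 CPM in P2+ and at 20.3, 29.6 and 34.6 in WT, so these groups overlapped, unlike for Prkcb. In P2- they were between 10.7 and 13.7 CPM. They were also lower in every KO (16.5 to 19.2 CPM) than in every WT library (20.3 to 34.6), as Prkcb was, and their part in Prkcb was not tested.

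Prkce, the nPKC isoform epsilon, is on chromosome 17 (86167785 to 86657919, plus strand). It read 102, 112 and 93.8 CPM in P2+, 74.6, 77.5 and 76.05 in WT, 63.4, 66.8 and 71.3 in KO, and 49.7, 39.1 and 52.5 in P2- PreMegEs. As for Prkca, the groups did not overlap and had the order P2+, WT, KO, P2-, but the steps from WT to KO (adjusted p = 0.119) and from KO to P2- (0.0518) did not pass the test. The log2 fold change of P2+ against P2- was 1.135 (SE 0.12, adjusted p = 1.37e-04). Replicate 2 held both the highest P2+ and the lowest P2- value, and without both of these libraries the log2 fold change was 0.95 (adjusted p = 1.56e-05). Its exons share 472 bases with AC154542.1 on the same strand, a gene not analysed here, so part of the Prkce count is uncertain.

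Prkch, the nPKC isoform eta, is on chromosome 12 (73584796 to 73778185, plus strand) and went the opposite way. It read 127, 110 and 105 CPM in P2-, 101, 102 and 106 in KO, 91.5, 95.0 and 88.5 in WT, and 69.6, 65.7 and 59.1 in P2+ PreMegEs. P2- and KO libraries overlapped, and the other neighbours did not. The log2 fold change of P2+ against P2- was -0.80 (SE 0.10, adjusted p = 3.09e-04), and -0.83 without replicate 2 of both. On the scale from 0% at the P2- mean to 100% at the P2+ mean, WT lay at 45.5% ± 6.60 (SD, n = 3) and KO at 22.2% ± 5.32 (SD, n = 3).

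Prkcq, the nPKC isoform theta best known from T cell receptor signalling and also present in platelets, is on chromosome 2 (11172108 to 11301222, plus strand). It read 46.6, 48.1 and 52.8 CPM in P2+, 36.9, 39.9 and 42.2 in WT, 37.5, 39.9 and 40.2 in KO, and 33.6, 33.4 and 34.2 in P2- PreMegEs. P2+ lay above and P2- below every other library, and WT and KO overlapped. Its log2 fold change of P2+ against P2- was 0.56 (SE 0.10, adjusted p = 2.14e-03), and 0.57 without replicate 2 of both. The T cell genes Cd3d, Cd3g and Cd8a had at most 3 counts in every library, and the summed T and NK list was made almost wholly by Nkg7, which was at 218.8 to 231.7 CPM in WT, 170.1 to 253.9 in P2+, 88.4 to 126.1 in P2- and 96.6 to 99.8 CPM in KO libraries. Nkg7 was thus higher in every P2+ than in every P2- library, as Prkcq was, and so was Lck, a kinase of T cell receptor signalling (2.35 to 3.52 CPM in P2+, 0.565 to 1.25 in P2-), while Cd5 reached at most 0.686 CPM. The part of this list in the Prkcq result was not tested.

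Prkcd, the nPKC isoform delta, is on chromosome 14 (30595354 to 30626210, minus strand) and had the smallest log2 fold change of the 7 tested genes in P2+ against P2-. It read 56.1, 70.9 and 56.1 CPM in P2+, 62.0, 53.3 and 53.6 in WT, 50.2, 50.9 and 55.7 in KO, and 43.7, 56.7 and 50.0 in P2- PreMegEs. Replicate 2 was the highest library in each of the 2 fractions, and the fractions overlapped. The log2 fold change of P2+ against P2- was 0.30 (SE 0.13) and did not pass the test (adjusted p = 0.114). With the replicate number as a block, which pairs the libraries of the fractions, it was also 0.30 and passed (adjusted p = 8.07e-03), and it passed without P2- replicate 2 (0.40, adjusted p = 0.0467) but not without replicate 2 of both (0.27, adjusted p = 0.0815).

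Of the atypical isoforms, Prkci (chromosome 3, 30995747 to 31052959, plus strand), a kinase of cell polarity complexes, was the only one detected beyond a single read. It read 48.7, 53.7 and 47.1 CPM in P2+, 37.0, 43.4 and 41.6 in WT, 41.6, 41.1 and 33.0 in KO, and 33.4, 37.1 and 36.6 in P2- PreMegEs. P2+ lay above the other groups, which overlapped one another. The log2 fold change of P2+ against P2- was 0.50 (SE 0.10, adjusted p = 4.94e-03), and 0.47 without replicate 2 of both. Prkcz (chromosome 4, 155260129 to 155361361, minus strand) had 0 counts in 11 libraries and 1 count in P2- replicate 3, all under the limit of 3 counts, and was not tested.

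**Figure D1:**
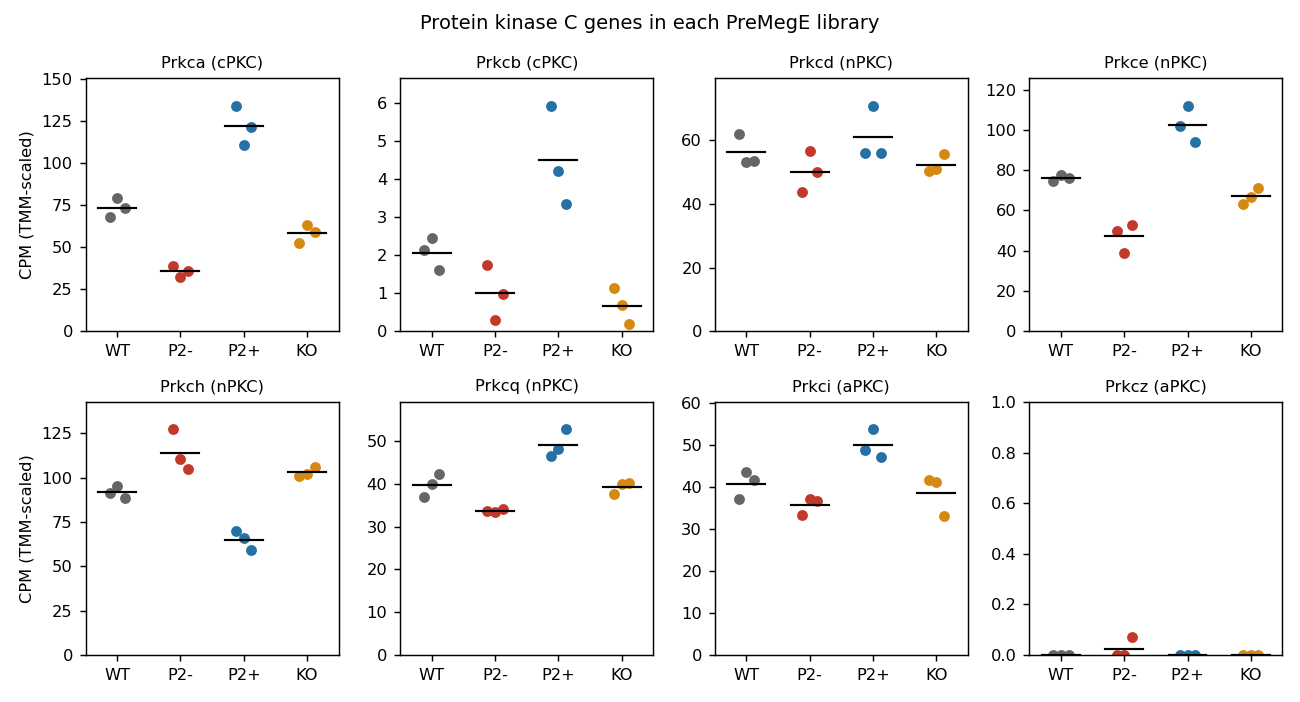
Level of each PKC gene (TMM-scaled CPM, vertical axes from 0 and different for each gene) in the 3 libraries of WT, P2-, P2+ and KO PreMegEs, with points for libraries and black lines for means. Prkca and Prkce step down from P2+ through WT and KO to P2-, Prkch steps up over the same groups, and Prkcz reads 0 in 11 of 12 libraries.

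Levels of different genes can be compared only per length, so RPKM was computed from the TMM-scaled CPM and the exonic length. Summed over the 8 genes, PKC transcripts came to 63.8 ± 2.83 RPKM (SD, n = 3) in P2+, 54.2 ± 1.14 in WT, 51.4 ± 1.24 in KO and 46.0 ± 0.826 in P2- PreMegEs, with no overlap between groups. The leading gene differed. Prkch had the highest mean RPKM in P2- (15.2), KO (13.7) and WT (12.2), whereas in P2+ PreMegEs Prkce (14.1) and Prkca (13.6) were ahead of Prkcd (11.0), Prkci (8.98) and Prkch (8.61). In P2+ the SDs of Prkce (1.26) and Prkca (1.30) exceeded the difference between them.

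As a share of the summed RPKM, the classical isoforms took 22.3% ± 2.54 (SD, n = 3) in P2+, 15.6% ± 0.849 in WT, 12.8% ± 0.842 in KO and 8.90% ± 0.794 in P2- PreMegEs. These ranges did not overlap, and nearly all of the classical share was Prkca, since Prkcb reached at most 1.21% in any library. The nPKC isoforms took the largest share everywhere, from 63.7% ± 2.05 in P2+ to 77.1% ± 0.515 in P2-. The atypical share was flat, between 13.5% and 14.1% on average. Within the nPKC isoforms, Prkch took 32.9% of the total in P2- and 13.5% in P2+, where Prkce stood at 22.1% against 14.1% in P2-. The RPKM ratio of Prkca to Prkch was 1.58 ± 0.155 (SD, n = 3) in P2+, 0.671 ± 0.0412 in WT, 0.474 ± 0.0418 in KO and 0.262 ± 0.0219 in P2- PreMegEs, and its ranges did not overlap. These shares are descriptions, because 3 libraries against 3 cannot give an exact permutation p below 0.1.

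**Figure D2:**
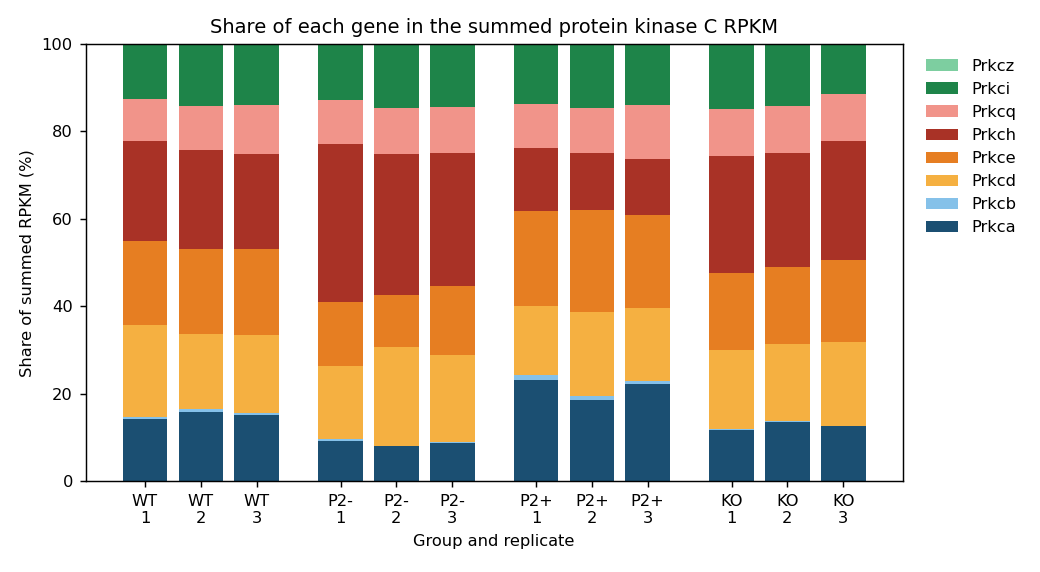
Share of each PKC gene in the RPKM summed over the 8 genes (percent, vertical axis), 1 bar for each library of each group. Prkca (dark blue) takes 8.61% on average in P2- and 21.3% in P2+ PreMegEs, and Prkch (dark red) 32.9% and 13.5%.

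P2+ against P2- PreMegEs asks how transcription differs between the fractions with and without proximal promoter activity. Of the 7 PKC genes tested, 5 were higher (Prkca, Prkcb, Prkce, Prkcq, Prkci) and 1 lower (Prkch) in P2+ PreMegEs. Prkcb passed the filter only through the P2+ libraries, so nothing is read from its place in this count or in those that follow. Without it, Prkca, Prkce, Prkcq and Prkci were higher and Prkch lower. Over all 12836 genes tested, 37.1% were called, 20.1% higher and 17% lower. The libraries of the fractions did not overlap for 6 of the 7 genes, against 49.9% of all genes. With replicate 2 left out of both fractions, 5 were again higher and 1 lower. The fits behind these counts did not pair the libraries of the fractions. With the replicate number as a block, which pairs them, 7 were called, 6 higher and 1 lower. Summed megakaryocyte markers moved with the fractions, at 1241 to 1845 CPM over 16 genes in P2+ and 237 to 317 in P2-, and summed erythroid markers in reverse, at 811 to 1044 CPM over 15 genes in P2+ and 3197 to 3730 in P2-. Not every gene moved with the sum of its list. The fractions overlapped for Gp6, Ppbp and Tubb1 among megakaryocyte markers. Among erythroid markers they overlapped for Hba-a1, Hba-a2, Hbb-bt, Hbb-bs, Slc4a1, Alas2 and Trim10. Neutrophil and monocyte markers (309 to 481 CPM over 12 genes in P2+, 63.7 to 121 in P2-) and mast cell and basophil markers (100.4 to 157 CPM over 7 genes in P2+, 31.8 to 37.6 in P2-) were also higher in P2+. So were B cell markers (28.1 to 53.9 CPM in P2+, 10.7 to 13.7 in P2-) and the T and NK list, nearly all Nkg7 (173 to 257 and 89.0 to 127 CPM). The part of these lists in the PKC results was not tested.

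WT PreMegEs, which are not divided by P2, were compared with each fraction, and all of these comparisons share the WT libraries. Against WT, P2+ PreMegEs had 4 of 7 PKC genes called, with 16.5% of 12941 genes called overall (9.45% higher, 7.07% lower). Prkca was higher by a log2 fold change of 0.74 (SE 0.09, adjusted p = 4.91e-04), Prkce by 0.44 (SE 0.09, adjusted p = 6.36e-03) and Prkcb by 1.126 (SE 0.34, adjusted p = 0.0463), and Prkch was lower at -0.50 (SE 0.08, adjusted p = 2.89e-03). The Prkcb call was lost without WT replicate 1, 2 or 3 or P2+ replicate 1 or 2 (adjusted p between 0.0579 and 0.164) and in the fit over all 12 libraries (0.134). Prkcq (0.31, adjusted p = 0.0520) and Prkci (0.30, adjusted p = 0.0703) lay above all WT libraries without passing, although Prkcq passed in the fit over all 12 libraries (0.0201), and Prkcd (0.12, adjusted p = 0.514) overlapped them. Summed megakaryocyte markers (821 to 944 CPM in WT) and mast cell and basophil markers (30.9 to 55.2 CPM in WT) were higher, and erythroid markers (1937 to 2186 CPM in WT) lower, in every P2+ than in every WT library, and their part was not tested.

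In P2- against WT PreMegEs, 3 of 7 PKC genes were called, with 16.5% of 12767 genes called overall (6.85% higher, 9.6% lower). Prkca was lower by a log2 fold change of -1.04 (SE 0.10, adjusted p = 9.55e-05) and Prkce by -0.69 (SE 0.11, adjusted p = 2.07e-03), while Prkch was higher at 0.32 (SE 0.09, adjusted p = 0.0346). The Prkch call was lost without WT replicate 1, 2 or 3 or P2- replicate 1 (adjusted p between 0.0759 and 0.111) and with edgeR's exactTest (0.0546). Prkcq (-0.23, adjusted p = 0.136) lay below all WT libraries without passing, and Prkcb (-0.99, adjusted p = 0.235), Prkci (-0.19, adjusted p = 0.256) and Prkcd (-0.17, adjusted p = 0.351) overlapped WT. Prkcb was at -1.61 without P2- replicate 1 and at -0.60 without P2- replicate 2. Megakaryocyte, neutrophil and monocyte, B cell and T and NK markers were lower, and erythroid markers higher, in every P2- than in every WT library by their summed CPM, and their part was not tested.

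KO against WT PreMegEs asks what changes when RUNX1C is missing. Of the 7 PKC genes tested, 2 were lower and none higher in KO, with 14.9% of 12784 genes called overall (6.18% higher, 8.76% lower). Prkca fell by 0.34 on the log2 scale (SE 0.09, adjusted p = 0.0153), which is 1.27-fold. Prkcb was lower at -1.61 (SE 0.52, adjusted p = 0.0454), from counts of 2 to 31, and passed the filter only through the WT libraries. Without KO replicate 1, its highest KO library, Prkcb was at -2.21, and without KO replicate 3, its lowest, at -1.18. Neither call held throughout. That of Prkca was lost without WT replicate 2 (adjusted p = 0.0872), KO replicate 1 (0.102) or KO replicate 3 (0.0543), and that of Prkcb without WT replicate 1 or 2 or KO replicate 2 or 3 (0.0852 to 0.172), with DESeq2 (0.0511) and in the fit over all 12 libraries (0.106). Prkce (-0.19, adjusted p = 0.119) lay below and Prkch (0.16, adjusted p = 0.134) above all WT libraries without passing, and Prkcd, Prkci and Prkcq differed by log2 fold changes of -0.12, -0.08 and -0.02. Megakaryocyte markers summed to 555 to 603 CPM in KO against 821 to 944 in WT, and erythroid markers to 2985 to 3354 against 1937 to 2186. Neutrophil and monocyte markers were at 89.5 to 145 CPM in KO and 187 to 342 in WT, and the T and NK list, nearly all Nkg7, at 97.3 to 100.9 and 220.1 to 233. B cell markers were at 16.5 to 19.2 CPM in KO and 20.3 to 34.6 in WT. The part of these lists in the KO results was not tested.

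KO PreMegEs were then set beside each fraction. Against P2-, where Prkcb failed the filter, 1 of 6 PKC genes was called, with 1.61% of 12588 genes called overall (1.33% higher, 0.278% lower). This was Prkca, higher in KO by a log2 fold change of 0.71 (SE 0.10, adjusted p = 7.36e-03), but not without KO replicate 2 (0.0641) or KO replicate 3 (0.0543). Prkce was higher by 0.50 (SE 0.11, adjusted p = 0.0518) and passed with exactTest (8.81e-03), DESeq2 (2.72e-03), no filter (5.70e-03) and all 12 libraries (0.0176), and without P2- replicate 2 (0.0276) or P2- replicate 3 (0.0461). Against P2+, 6 of 7 PKC genes were called, 1 higher (Prkch, 0.66, adjusted p = 1.06e-04) and 5 lower, with 37.1% of 12807 genes called overall (16.7% higher, 20.3% lower). The lower genes were Prkca (-1.08), Prkcb (-2.74, passing the filter only through P2+, -3.35 without KO replicate 1 and -2.31 without KO replicate 3), Prkce (-0.62), Prkci (-0.38) and Prkcq (-0.34), with adjusted p between 1.24e-05 and 0.0191. Of these, the call of Prkci was lost without KO replicate 3 (adjusted p = 0.0841) and that of Prkcq without P2+ replicate 3 (0.0545) or KO replicate 1 (0.0601). Prkcd (-0.24, adjusted p = 0.103) was not called. The summed megakaryocyte markers of every KO library lay above those of every P2- and below those of every P2+ library, as did mast cell and basophil markers (54.2 to 74.9 CPM in KO) and B cell markers. The erythroid markers of KO overlapped P2- and lay above P2+, and neutrophil and monocyte and T and NK markers overlapped P2- and lay below P2+. Their part was not tested.

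With the study's added minimum of 2-fold, 3 PKC genes were called in P2+ against P2- (12.7% of all genes), namely Prkca, Prkcb and Prkce. Without replicate 2 of both fractions, Prkce fell under 2-fold (0.95). In P2+ against WT there was 1 (3.84%), which was Prkcb. There was 1 in P2- against WT (4.68%), which was Prkca, and 1 in KO against WT (3.41%), which was Prkcb. In P2- against WT, Prkca fell under 2-fold without WT replicate 2 (-0.982) or P2- replicate 2 (-0.985). KO against P2- had 0 (0.508%), and KO against P2+ had 2 (11.4%), Prkca and Prkcb. Prkcb passed the filter only through its higher group in P2+ against P2-, KO against WT and KO against P2+, so nothing is read from its place in these counts, and without it they are 2, 0 and 1.

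**Figure D3:**
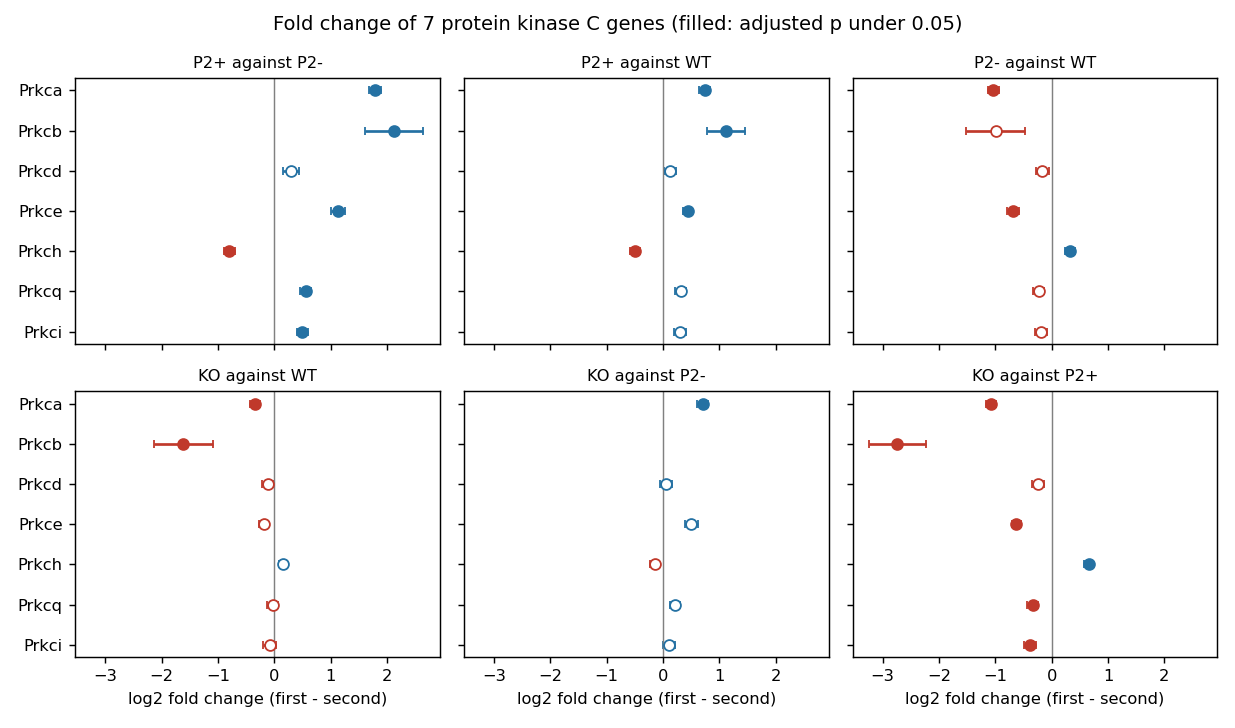
Log2 fold change (horizontal axis, first group minus second) of the 7 tested PKC genes in the 6 comparisons, with bars for the SE, filled points for an adjusted p under 0.05, blue for higher and red for lower in the first group. Prkca is called in all 6 panels, Prkch lies on the other side of 0 from Prkca and Prkce in each, and Prkcb, absent from KO against P2-, has the widest bars.

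The rest of the PKC pathway was taken from lists of 73 genes, of which 54 were tested in P2+ against P2-, with 22 higher and 10 lower, beside 20.1% higher and 17% lower over all genes tested. Without replicate 2 of both fractions, 19 were higher and 10 lower, and with the replicate number as a block 24 were higher and 14 lower. The counts by role that follow come from the same comparison and share this background. The median log2 fold change was 0.15, beside -0.02 over all genes tested. Upstream, all 6 tested genes for phospholipase C, the enzymes that release diacylglycerol, were higher in P2+ (median 0.62). Plcb1 read 5.53 to 10.3 CPM in P2+ and 1.06 to 1.98 in P2- (2.39, SE 0.37), Plcg2, which acts below tyrosine kinases, 72.7 to 82.9 and 20.7 to 25.8 (1.81, SE 0.12, adjusted p = 9.29e-06), and Plcb2, which acts below G protein-coupled receptors, 136.9 to 162.6 and 71.6 to 119.5 (0.71, SE 0.17, adjusted p = 0.0119). The diacylglycerol kinases, which remove that lipid, had 3 of 7 higher and none lower, led by Dgkg (8.46 to 11.5 CPM in P2+, 0.557 to 1.69 in P2-, log2 fold change 3.07), then Dgka (1.26) and Dgkd (0.48). Dgkg passed the filter only through the P2+ libraries, so for it too a difference was built in. Genes for making and for removing the lipid were both among those higher in P2+.

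Of the genes of the protein kinase D, RASGRP, chimaerin and MUNC13 families, several of which bind diacylglycerol, 4 of 5 tested were higher in P2+ and none lower, in a comparison where 20.1% of all genes were higher. They included Chn2, a GTPase-activating protein for Rac (1.87, SE 0.27), Prkd2, a kinase phosphorylated by PKC (0.76, SE 0.14), and Rasgrp2, the Rap1 activator of platelets, which responds to calcium (0.67, SE 0.19). Of 11 genes that fold, prime or dephosphorylate PKC, 2 were higher and 3 lower, with a median log2 fold change of -0.07. Phlpp1, a phosphatase of PKC and Akt, was at 23.9 to 28.6 CPM in P2+ and 14.0 to 14.6 in P2- (0.90, SE 0.13). The chaperone genes Hsp90aa1 (-0.64, SE 0.16) and Hsp90ab1 (-0.41, SE 0.08) were lower in P2+. Pkn2, a related kinase of the protein kinase N family, was also lower (-0.24, SE 0.07), 1 of 3 tested.

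Scaffolds and binding partners had 2 genes higher and 4 lower of 12 tested (median -0.22). The 2 higher genes were Sdpr (cavin-2), a binding partner of PKC in caveolae, at 219.5 to 287 CPM in P2+ and 11.5 to 27.4 in P2- (3.76, SE 0.28, adjusted p = 1.87e-05), and Prkcdbp (cavin-3), a partner of the delta isoform, at 22.0 to 23.2 and 5.65 to 7.68 (1.76, SE 0.16). Llgl2, of the polarity complex of atypical PKC, was lower (-0.75, SE 0.19). Of 10 substrates tested, 5 were higher and 2 lower (median 0.30). Plek encodes pleckstrin, a major PKC substrate of platelets, and was at 963 to 1232 CPM in P2+ and 102 to 155 in P2- (3.16, SE 0.18, adjusted p = 5.37e-06). Nrgn (neurogranin) was higher by 1.79 (SE 0.20), and Add2, the beta-adducin of the red cell membrane skeleton, was lower (-4.68, SE 0.47), at 0.153 to 1.10 CPM in P2+ and 12.3 to 23.3 in P2-. Add2 passed the filter only through the P2- libraries, so a difference was built into its entry. The exons of Plcb1, Dgka, Dgkd, Dgkg, Rasgrp2, Chn2, Prkcdbp, Plek, Add2 and Pkn2 overlap a gene on the other strand, and since the use of strand in counting is not stated, their values are uncertain.

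Against WT, the same lists had 9 of 54 genes higher and 5 lower in P2+ PreMegEs, beside 9.45% and 7.07% of all genes, and 6 and 3 without WT replicate 2 or without WT replicate 3. In P2- against WT PreMegEs 3 of 54 were higher and 12 lower, beside 6.85% and 9.6%, but 0 and 9 without WT replicate 1 and 1 and 7 without WT replicate 2. In KO against WT PreMegEs, 5 of 54 were higher and 11 lower, beside 6.18% and 8.76% of all genes, and the median log2 fold change was -0.03, beside -0.0029. Without KO replicate 3, 1 was higher and 8 were lower. The lower genes with the largest changes were Dgkg at 1.27 to 2.22 CPM in KO and 4.81 to 6.12 in WT (-1.58, SE 0.31, adjusted p = 1.80e-03), Marcks, a membrane substrate of PKC, at 6.01 to 10.3 and 21.5 to 23.6 (-1.46, SE 0.18, adjusted p = 1.57e-05), and Sdpr at 55.2 to 72.2 and 121 to 159 (-1.17, SE 0.10, adjusted p = 4.16e-07). In all 3, the KO and WT libraries did not overlap. These genes were picked for the size of their change, and the share of all genes without overlap was not computed here. Nothing is therefore read from it.

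**Figure D4:**
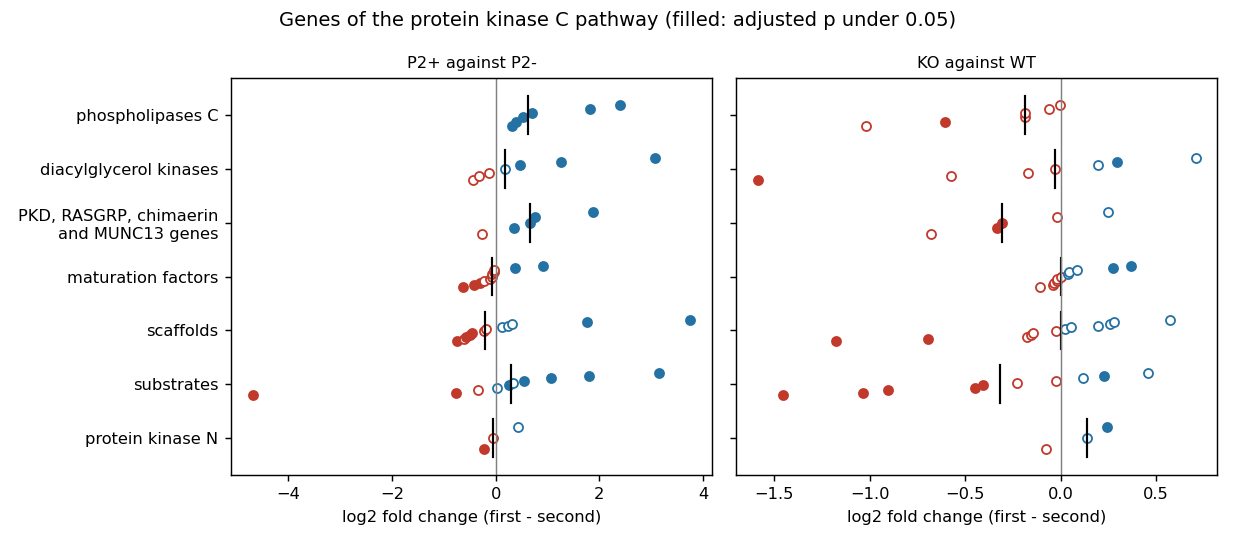
Log2 fold change (horizontal axes, of different range) of the PKC pathway genes tested in P2+ against P2- and in KO against WT PreMegEs, 1 point for each gene in rows by role, filled for an adjusted p under 0.05, with black lines for row medians. In P2+ against P2-, all 6 phospholipases C lie to the right of 0 and Add2, which passed the filter only through P2-, is the substrate farthest to the left, at -4.68.

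Genes whose log2 CPM followed a member most closely over the 12 libraries are named as a description only, since these points fall into 4 groups that share the contrasts above. Of 13265 candidates, Cd93 had the highest Pearson correlation with Prkca (r = 0.991), Lrmp with Prkce (0.976), Pon2 with Prkch (0.980), Gp1ba, a subunit of the platelet von Willebrand factor receptor, with Prkcq (0.978), 5730409E04Rik with Prkci (0.943), Dleu7 with Prkcb (0.961) and Crlf2, a cytokine receptor subunit, with Prkcd (0.889). Among the members themselves, Prkca and Prkce were the closest pair (0.963).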

How the data were processed

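The deposited values are integer counts per Ensembl gene and library, without normalization. The authors prepared strand-specific poly(A) libraries from 50 ng of total RNA with 16 cycles of amplification, aligned paired reads to GRCm38 with Bowtie2 and counted them with featureCounts. The submitters' processing notes list Bowtie2 2.21, SAMtools 0.1.19, R 3.1.0 and edgeR 3.8.5. How strand and multiply aligned reads were treated in counting is not given in the sources used here.

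Groups were compared 3 against 3 with the quasi-likelihood F-test of edgeR 4.0.16 (R 4.3.3) after TMM scaling, keeping a gene where 3 or more of the 6 libraries reached 1 CPM. A call needed an adjusted p (Benjamini-Hochberg, over every gene tested) under 0.05. The SE is the log2 fold change divided by the square root of the F statistic. Levels are TMM-scaled CPM over the 12 libraries, and RPKM used exonic lengths from GENCODE vM21 (GRCm38), which holds 40254 of the 41128 genes. Alternatives were edgeR's exactTest, DESeq2 1.42.0, RLE scaling, no filter, all 12 libraries in 1 fit, a replicate block, each library left out in turn and a minimum of 2-fold. Leaving out replicate 2 of both fractions was chosen after seeing the data.

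The members and lists were chosen with earlier results of these data known. Named were all members, in each pathway list the 3 called genes with the largest change in P2+ against P2-, the 3 with the largest change in KO against WT, the nearest gene of each member, and marker genes that are at 0 or lead their list. Other marker genes, such as Lck and Cd5, were named outside this rule. The replicate numbers come from the sample titles. Deviations from the group means of same-numbered libraries correlated between P2+ and P2- (0.386, 0.572 and 0.405 across genes). These libraries were therefore taken as paired in the replicate block, but the main fit left the pairing out. In no other comparison did all 3 correlations exceed 0.1. Replicates are separate pools of 3 mice. Depth is given above.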

Additional observations from a re-analysis of the deposited data

How the results depend on the processing

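Of 499 log2 fold changes of members recomputed under the alternatives, 458 kept their direction and side of the threshold, 27 lost and 9 gained a call, and 5 reversed. The 5 reversals were uncalled values near 0 with 1 library left out, for Prkcd in P2+ against WT (range -0.0078 to 0.20, below 0 without P2+ replicate 2) and in KO against P2- (-0.033 to 0.15, below 0 without P2- replicate 1), and in KO against WT for Prkci (-0.15 to 0.017, above 0 without KO replicate 3) and Prkcq (-0.077 to 0.028, above 0 without WT replicate 3 and, at 0.012, without KO replicate 1). The counts of PKC genes called, in the order P2+ against P2-, P2+ against WT, P2- against WT, KO against WT, KO against P2- and KO against P2+, were 3, 1, 1, 1, 0 and 2 with a minimum of 2-fold. With 1 library left out they ranged from 6 to 7, 3 to 4, 2 to 3, 0 to 2, 0 to 2 and 5 to 6. KO against WT had 1 call with DESeq2 and 1 with all 12 libraries in 1 fit. KO against P2- had 2 with exactTest, 2 with DESeq2, 2 without a filter and 2 with all 12 libraries. Counts of pathway genes, in the first 4 of these comparisons, were 11, 1, 9 and 4 with a minimum of 2-fold and ranged from 26 to 28, 9 to 13, 8 to 16 and 9 to 16 with 1 library left out. The causes were not tested, other than that a minimum of 2-fold can only remove calls.

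With the replicate block, P2+ against P2- had 7 PKC genes called, the added one being Prkcd, and 38 pathway genes. In the comparisons whose libraries share only a number, the block gave 3 PKC genes in P2+ against WT (Prkcb lost, adjusted p = 0.0560), 2 in P2- against WT (Prkch lost, 0.0660), 2 in KO against WT, 1 in KO against P2- and 6 in KO against P2+, and 12, 10 and 17 pathway genes in the first 3. It changed no other call of a member. Depth limits Prkcb, with 2 to 71 counts, and Prkcz, of which nothing can be said beyond the limit of 3 counts.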
